A study of Mus musculus with 3 samples.

Results

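Single-cell RNA sequencing of the mouse anorectal junction was used to describe the keratinocytes that the authors placed in their cluster 1, here called basal anal keratinocytes. The cells were chosen by that cluster number in the deposited cell table, where their cell type name is keratinocyte. They numbered 4049 of the 37080 cells of the series, and the 10 keratinocyte clusters together hold 20321 cells. Distal colon and anus came from wild-type C57Bl/6 mice bought at 6 weeks of age. The day 0 mice were not treated. The mice of day 7 and day 42 had drunk 3% dextran sulfate sodium (DSS), a polymer that injures the lining of the gut, for 6 days from day 0, and were dissected in acute colitis or after recovery. Tissue of 5 mice was pooled per day and made into 1 library. There were thus 3 libraries and no replicates, variation between mice was not measured, and no test between days was possible. Cluster 1 held 443 cells before treatment, 563 in colitis and 3043 after recovery.

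The anal canal has a stratified squamous lining that meets the single-layered columnar lining of the colon at the anorectal junction. Basal keratinocytes of such a lining rest on the basement membrane, to which hemidesmosomes (an integrin pair from Itga6 and Itgb4, the collagen Col17a1 and the linkers Dst and Plec) attach them. They make the keratins Krt5, Krt14 and Krt15 and depend on the transcription factor Trp63, and their daughters switch to other keratins as they move up. Near a wound, keratinocytes are known to turn on Krt6a, Krt16 and Krt17.

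Levels are given in CPM, which are the unique molecular identifiers (UMIs, 1 per captured RNA molecule) of a gene summed over the cells of cluster 1 in a library, scaled to a total of 1000000 UMIs. Where 3 values follow each other they are those of day 0, day 7 and day 42. The summed UMIs were 4083108, 6720030 and 20592229, and the median cell had 9129, 11521 and 6186 UMIs and 9.25%, 8.04% and 6.04% mitochondrial UMIs. Days are compared as the log2 ratio after 10 CPM was added to both levels, which understates the difference of low genes. Intervals are exact 95% intervals for counting error, and they do not cover mice or libraries. In the series, 139 cell barcodes occurred in more than 1 library. Of the cells in cluster 1, 29 carried such a barcode, and 1 barcode was in cluster 1 of 2 libraries.

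The name basal was checked against 8 basal keratinocyte genes, and their levels stood above the mean of the other keratinocyte clusters for 8, 7 and 8 of the 8, where 54.3%, 51.6% and 53.5% of all genes did so on the 3 days. The clusters were made from these same genes, so this is a description with no test. Krt5 was at 3396, 3382 and 4682 CPM, where the mean of the other clusters with at least 50 cells was 2373, 2936 and 3104 CPM. Krt15 stood at 3419.7, 1582 and 1981 CPM against a mean of 2075, 623 and 1266 CPM. Krt14 was the exception at day 7, with 8124 CPM against a mean of 9265 CPM. Trp63 was at 451, 381 and 253 CPM against 272, 205 and 238 CPM, so its lead over the other clusters was narrow at day 42. Of the 8 genes 1 was highest in cluster 1 on each day, a number near the 8.4%, 9.4% and 6.33% of all genes that were. Summed, the 8 genes were at 14437, 14652.5 and 22419 CPM in cluster 1. Suprabasal markers were present there too. The 6 epidermal ones summed to 1239, 1230 and 418 CPM and the 5 mucosal ones to 1081, 591 and 1727 CPM.

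Markers of several cell types other than keratinocytes were then summed in cluster 1. The 9 columnar markers summed to 115, 51.2 and 123 CPM in cluster 1 and to 11858, 19385 and 16165 CPM in colonocytes. T cell markers summed to 7.84, 11.9 and 10.2 CPM, and endothelial markers to 3.18, 3.27 and 4.22 CPM. The 6 neutrophil markers summed to 2.204, 280 and 132 CPM, and 4 haemoglobin genes to 1.47, 688 and 17.7 CPM. In T cells of the same libraries the neutrophil markers summed to 21.7, 5074 and 512 CPM, above cluster 1 on every day. The haemoglobin genes summed to 7.24, 66.3 and 5.02 CPM in T cells, so cluster 1 was the higher at days 7 and 42 and the lower at day 0. They were uneven within cluster 1, with Hbb-bs at 19.97 CPM in the day 7 cells of the later rebuilt cluster A and 2704 CPM in the 68 day 7 cells that joined no rebuilt cluster led by cluster 1. The part of such RNA in the antimicrobial and chemokine genes below was not tested.

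The share of cluster 1 among the cells had overlapping counting intervals at day 0 and day 7 and was far higher at day 42. Of all cells it made up 4.01% (3.66 to 4.40) before treatment, 3.92% (3.61 to 4.25) in colitis and 26.1% (25.3 to 26.9) after recovery. Among keratinocytes the order was the same but days 0 and 7 stood apart, with 13.4% (12.2 to 14.6), 6.23% (5.74 to 6.75) and 38.2% (37.1 to 39.3). Day 7 was thus the lowest of the 3 days on that scale, with an interval apart from that of day 0. Cluster 5 took a like course among keratinocytes, at 2.62%, 1.79% and 27.0%, so the higher share at day 42 was not confined to cluster 1. For either cluster, the number of cells in the tissue and their recovery into a library cannot be told apart. A filter on cells (1000 UMIs and 500 genes or more, mitochondrial share up to 20%) gave 5.72%, 4.79% and 31.9% of all cells for cluster 1.

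**Figure D1:**
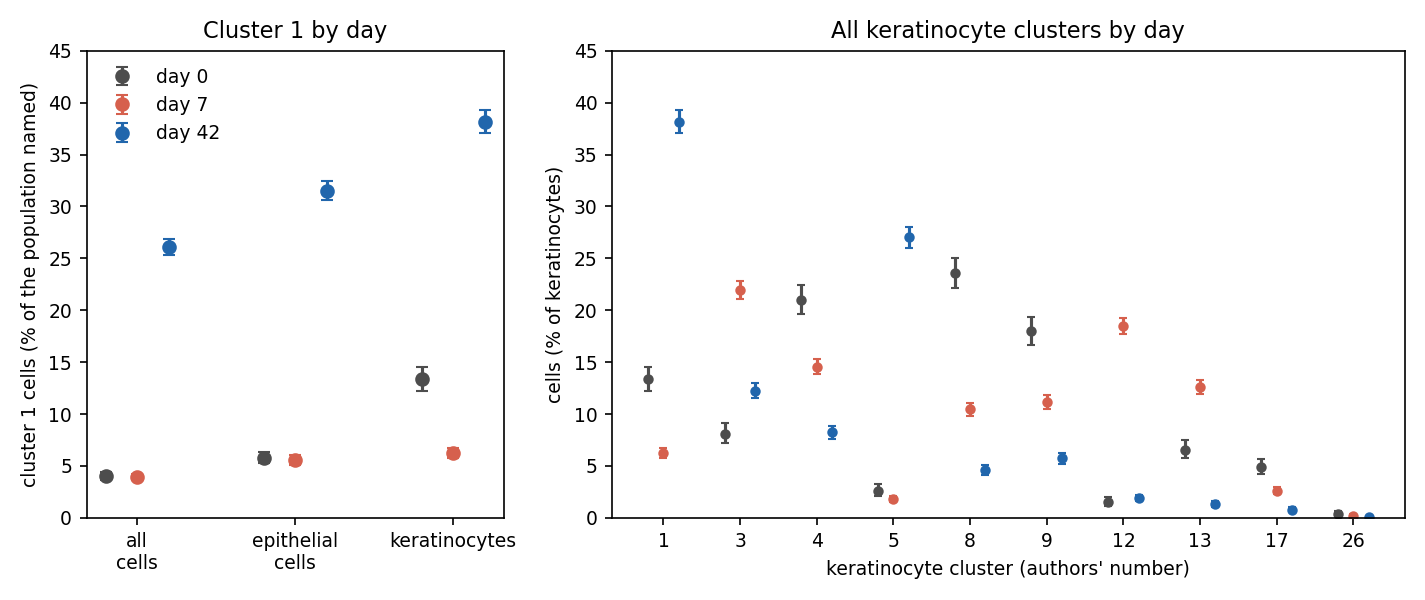
Share of cluster 1 among all cells, epithelial cells and keratinocytes (left) and of every keratinocyte cluster among keratinocytes (right), in percent, by day. Points are single pooled libraries and bars are exact 95% intervals for counting error. Cluster 1 is at 38.2% of keratinocytes at day 42, above its 13.4% at day 0 and 6.23% at day 7. Cluster 5 is at 2.62%, 1.79% and 27.0% on days 0, 7 and 42.

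The 6 genes given as markers of these cells followed 4 courses. Krt15, a basal keratin, was highest at day 0, with 3419.7, 1582 and 1981 CPM. Wnt10a, a Wnt ligand of skin and its appendages, was at 137, 93.7 and 200.03 CPM, lowest at day 7 and highest at day 42. S100a4, a calcium-binding protein, dipped at day 7 and was highest at day 42, with 422, 154 and 1047 CPM. Calcb, which encodes the beta form of the peptide CGRP, was at 178, 190.2 and 1687 CPM. Igfbp3, a secreted binder of insulin-like growth factors, was at 155, 142 and 959 CPM. For both, day 0 and day 7 lay close together and day 42 stood apart. Among the cells of rebuilt cluster A, from the new clustering set out further on, Calcb was also highest at day 42. It stood there at 48.2, 28.6 and 197 CPM, with day 7 below day 0. Igfbp3 was at 62.4, 18.7 and 45.98 CPM in those cells, highest at day 0. There S100a4 was at 118, 40.4 and 123 CPM, level between days 0 and 42. Stmn2, a microtubule regulator known from growing axons, had 13, 1346 and 12941 UMIs, or 3.18, 200.3 and 628 CPM. It was near 0 in the untreated library and present in both libraries from treated mice. In the mm10 build and GENCODE M21 annotation the whole genes lie as follows, with Krt15 (ENSMUSG00000054146) at chr11:100131758-100135928, Wnt10a (ENSMUSG00000026167) at chr1:74791516-74804179, S100a4 (ENSMUSG00000001020) at chr3:90603771-90606045, Calcb (ENSMUSG00000030666) at chr7:114718643-114723365, Igfbp3 (ENSMUSG00000020427) at chr11:7206086-7213923 and Stmn2 (ENSMUSG00000027500) at chr3:8509360-8561606.

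None of the 6 marked cluster 1 alone. It was the highest keratinocyte cluster for 1 of 6 at day 0, 1 of 6 at day 7 and 4 of 6 at day 42, and it lay above the mean of the others for 6, 4 and 6. The shares of all genes given above for these ranks were 8.4%, 9.4% and 6.33% for the highest cluster and 54.3%, 51.6% and 53.5% for the mean, and 4 of 6 at day 7 is near the latter. The 6 genes were given as markers of this cluster and chosen with earlier results of these data known. Their counts are thus a description with no test. Cluster 3, whose dividing-cell gene Mki67 was at 757, 244 and 504 CPM against 71.3, 50.7 and 52.9 CPM in cluster 1, had Calcb at 290.1, 811 and 1548 CPM and Stmn2 at 6.499, 452 and 505 CPM. Cluster 5, whose Krt7 level was 2322, 2213 and 2266 CPM, had Calcb at 651, 947 and 1529 CPM and Igfbp3 at 532, 671 and 1172 CPM. Clusters 8 and 9 had little of that peptide gene, with Calcb at 3.09, 12.01 and 28.1 CPM and 2.35, 7.297 and 20.7 CPM. At day 42 the gap between cluster 1 and the others was widest for Stmn2, S100a4 and Wnt10a, whose log2 ratios to the mean of the other clusters were 2.03, 1.84 and 1.56.

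**Figure D2:**
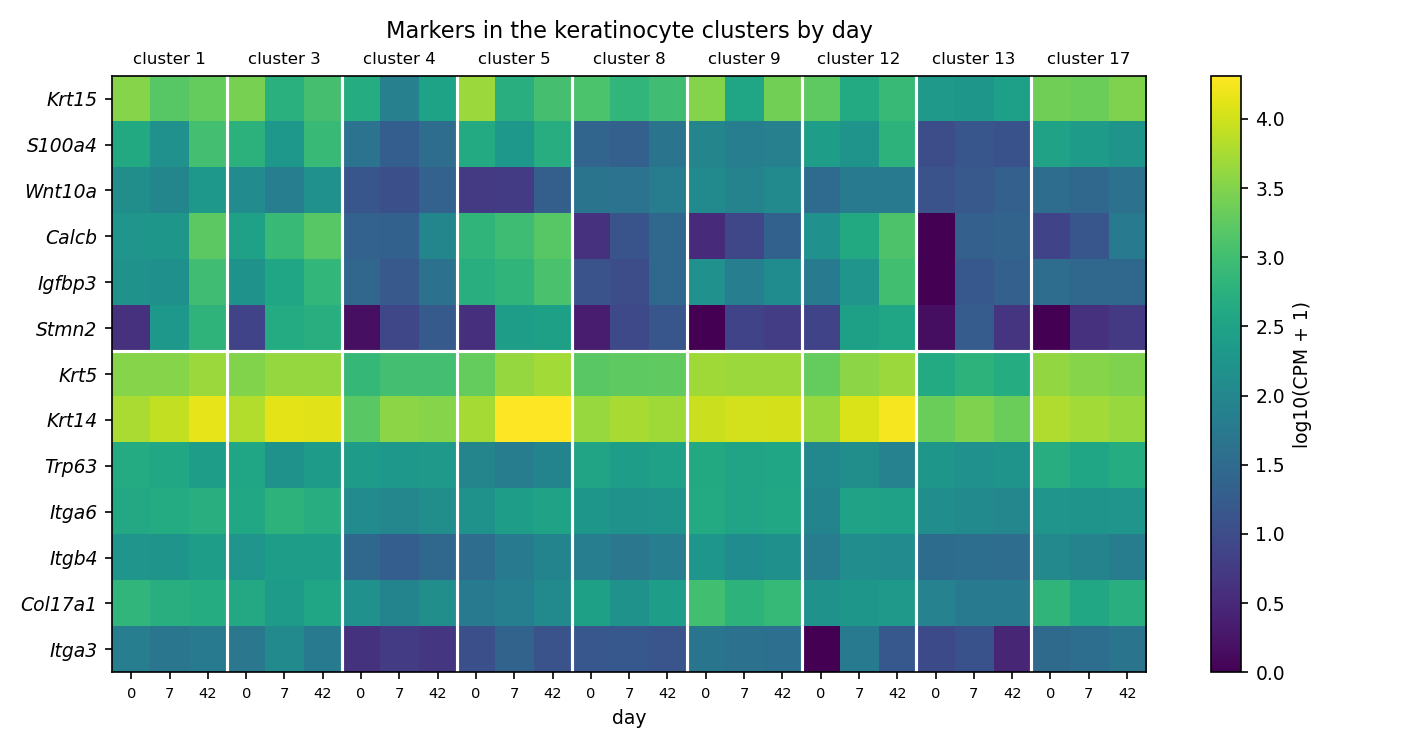
Levels of the 6 given markers (above the white line) and of 7 further basal keratinocyte genes in the 9 keratinocyte clusters with at least 50 cells, by day, as log10(CPM + 1). Calcb is at 178, 190.2 and 1687 CPM in cluster 1 and 651, 947 and 1529 CPM in cluster 5, and near the bottom of the scale in clusters 8 and 9.

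Genes that stood above the mean of the other keratinocyte clusters on all 3 days included Bcam, Itga6 and Itgb4, whose products bind laminin. Genes were ranked by the lowest of their 3 daily log2 ratios to the mean of the other clusters, and 15 were named. Bcam came first, at 216, 176 and 218 CPM against a mean of 84.4, 79.6 and 95.2 CPM elsewhere. Itgb4 was at 176, 171 and 255 CPM against 86.7, 94.3 and 101 CPM, and Itga6 at 402, 452 and 509 CPM against 209, 256 and 254 CPM. The clusters most alike were closer than that mean: Bcam was at 196, 134 and 195 CPM in cluster 3 and 159.7, 125 and 142 CPM in cluster 9, and Itgb4 at 179, 255 and 255 CPM in cluster 3, no lower than in cluster 1. Meis2, a homeobox factor, was at 411, 328 and 346 CPM against 187, 139 and 186 CPM. Wnt4, a Wnt ligand, stood at 479, 412 and 436 CPM against 242, 233 and 229 CPM, and Ifitm3, an interferon-inducible membrane protein, at 1304, 1916 and 2109 CPM against 565, 1013 and 1033 CPM. The other 9 were Siva1, Tmem176a, Tmem176b, Tns4, Sema5a, Arl4c, Golim4, Txn1 and Clip4. Of these 15 genes, Arl4c and Tmem176a alone had a day ratio past 1 on the log2 scale, both upward. Arl4c was at 1.14 from day 7 to day 42 and Tmem176a at 1.04 from day 0 to day 42. Of all genes, 1.85% and 2.46% were at or above 1 in these comparisons. Among the 20 hemidesmosome and basement membrane genes, 15, 14 and 16 lay above the mean of the other clusters, and 4, 3 and 7 were highest in cluster 1. Of all genes that reached 5 CPM in cluster 1 or in the mean of the others, 54.3%, 51.6% and 53.5% lay above that mean, and 8.4%, 9.4% and 6.33% were highest in cluster 1.

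In acute colitis at day 7, the prostaglandin enzyme Hpgd, the growth factor Areg and the heat shock protein Hspb1 were higher than in untreated mice, and Igfbp2, Krt4 and Apoe were lower. Few genes differed by as much. Of 9776 genes that reached 5 CPM in one of the libraries compared, 0.747% had a log2 ratio of at least 1 and 0.542% a ratio of at most -1, and the median was -0.04. Stmn2, described above, had the highest ratio, at 3.996. Hpgd, which breaks down prostaglandins, had 99.9 CPM at day 0 and 567 CPM at day 7, a ratio of 5.67-fold (95% counting interval 5.12 to 6.299). The gene 2610528A11Rik went from 138 to 689 CPM. Both were near or below the untreated level at day 42, with 95.3 and 44.1 CPM. Among the cells of rebuilt cluster A (a new clustering set out further on, which holds most of the day 0 and day 7 cells), Hpgd was at 123, 637 and 298 CPM and thus stayed above day 0 at day 42, by 1.21 on the log2 scale. Fabp5, a fatty acid binding protein of squamous cells, was at 564, 1866 and 1608 CPM, and the small heat shock protein Hspb1 at 217, 819 and 1205 CPM. These 2 genes stayed high at day 42. Areg, a ligand of the epidermal growth factor receptor, was at 38.7, 175 and 474 CPM, and Ly6c1 at 33.6, 149.6 and 56.3 CPM.

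Among genes lower at day 7, Igfbp2, another binder of insulin-like growth factors, had the lowest ratio, with 111 CPM at day 0 and 12.9 CPM at day 7, and stood at 6.94 CPM at day 42. Krt4, a mucosal suprabasal keratin, was at 455, 153 and 59.4 CPM. Spink5, a protease inhibitor of squamous cells, was at 137, 27.5 and 61.1 CPM. Aldh3a1 and Cyp2f2, enzymes that handle aldehydes and foreign compounds, were at 107, 28.9 and 42.1 CPM and 171, 44.6 and 68.1 CPM. Apoe, a lipid carrier, was at 1100.4, 502 and 323 CPM, and Crip2, a LIM domain protein, at 374, 134 and 553 CPM. Krt4 and Apoe were lower again at day 42, whereas S100a4 and Crip2 were higher at day 42 than at day 0. This course did not hold in rebuilt A, where Krt4 was at 466, 163 and 172 CPM, Apoe at 1248, 595 and 1054 CPM, S100a4 at 118, 40.4 and 123 CPM and Crip2 at 330.1, 130.2 and 255 CPM. Dcn, a matrix proteoglycan best known from fibroblasts, was at 166, 24.9999 and 43.9 CPM, and the 6 fibroblast markers, Dcn included, summed to 184, 29.9 and 49.2 CPM. The fibroblast collagen Col1a1 was at 1.47, 0.744 and 0.68 CPM in the same cells. The part of fibroblast RNA in the Dcn values was not tested.

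S100a9, which with S100a8 forms the neutrophil protein calprotectin, came second among the genes higher at day 7, at 2.204, 141 and 77.5 CPM. In T cells of the same libraries it stood at 12.7, 2366 and 241 CPM, above the level in cluster 1 on every day. Of its day 7 UMIs in cluster 1, 60.4% lay in 10 cells. S100a8 was at 0, 95.1 and 41.4 CPM. Both genes are among the 6 neutrophil markers summed above, so their course is itself part of that sum. What neutrophil RNA contributes was not tested. Without the 5% of cells with the highest Scrublet doublet scores, the S100a9 ratios were 2.70 for day 7 and 1.21 for day 42 against day 0, in place of 3.63 and 2.84.

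After recovery at day 42, Calcb, Nupr1, Ecm1, Krt6a and Krt7 were higher than in untreated mice, and Igfbp2, Krt4, Krt1 and Apoe were lower. Many of these differences were smaller among the cells of rebuilt cluster A, which held 69.3% of the cluster 1 cells of day 0. The rebuilt clusters group cells by expression, so day differences within one are narrowed in part by construction. Of 9874 genes, 2.46% had a log2 ratio of at least 1 and 0.83% of at most -1, with a median of -0.03. Among genes past 1 in either direction 74.8% were higher, but with mitochondrial and ribosomal protein genes left out of the totals this was 55.8%, and the median of all genes shifted by -0.12. Calcb was higher by 9.502-fold (95% counting interval 8.83 to 10.2). Nupr1, a small stress-response chromatin protein, was at 22.04, 69.2 and 752 CPM. Ecm1, an extracellular matrix protein of skin, was at 97.7, 87.2 and 802 CPM, and the wound keratin Krt6a at 349, 549 and 2269 CPM. Krt7, a keratin of simple and transitional epithelia, was at 316, 160.3 and 979.9 CPM. Day 42 was the highest library for each of these genes, and for Krt7 and Ecm1 day 7 was the lowest.

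Several genes were close to absent at day 0. Tm4sf1, a surface protein, had 4, 36 and 3980 UMIs (0.98, 5.36 and 193 CPM). Fst, an inhibitor of activin, had 7, 112 and 2821 UMIs (1.71, 16.7 and 137 CPM), and Inhba, a subunit of activin itself, was at 1.22, 5.36 and 87.6 CPM. Ppbp, a chemokine known from platelets, had 5, 437 and 5466 UMIs (1.22, 65.03 and 265 CPM). Cxcl5, a chemokine that attracts neutrophils, had 1, 649 and 2525 UMIs (0.245, 96.6 and 123 CPM). With so few UMIs at day 0, their ratios are loosely fixed: Tm4sf1 was higher at day 42 by 197-fold (95% counting interval 76.995 to 724). Cxcl5 and Ppbp were much higher in cluster 5, at 65.8, 2600.3 and 1156 CPM and 4868, 9277 and 5315 CPM, and T cells held 3.62, 51.2 and 50.2 CPM of Ppbp. The part of RNA from cluster 5 in these values was not tested. Without the 10 cells richest in the gene in each library, the day 7 against day 0 ratio was 2.22 for Cxcl5 (main value 3.38) and 1.37 for Ppbp (main value 2.74).

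Among genes lower at day 42 than at day 0 were Krt1, Krtdap and Apoc1, but all 3 lost that call in rebuilt A. Krt1, the keratin of the epidermal suprabasal layers, was at 424, 374 and 68.4 CPM, and Krtdap, a secreted product of differentiating keratinocytes, at 644, 707 and 266 CPM. For both, days 0 and 7 lay close together and day 42 was lower. In rebuilt A, Krt1 was at 508, 448 and 269 CPM and Krtdap at 672, 756 and 635 CPM, so Krtdap was level there. Apoc1, a lipid carrier like Apoe, was at 242, 176 and 69.01 CPM, and at 251, 206 and 195 CPM in rebuilt A. Pik3r1, a subunit of phosphoinositide 3-kinase, was at 156, 145 and 43.6 CPM (189, 181 and 121 CPM in rebuilt A), Ndufa4l2 at 179, 154 and 49.7 CPM and the mitochondrial tRNA ligase Lars2 at 520.2, 272 and 141 CPM. Lars2 took the same course in T cells, at 494, 326 and 145 CPM, so its order over the libraries was not confined to cluster 1. Of the genes named for day 42 against day 0, 5 of the 10 highest and 4 of the 10 lowest also passed 1 in the same direction in T cells, and for day 7 against day 0, 5 and 2 did. For day 42 against day 7 these counts were 2 and 5. Of all genes with at least 100 CPM in cluster 1, the shares past 1 in T cells, higher and lower, were 3.88% and 0.792% for day 7 against day 0, 4.22% and 2.5% for day 42 against day 0, and 1.54% and 3.67% for day 42 against day 7. What free RNA and RNA of other cells contribute was not tested.

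Between day 7 and day 42, the peptide gene Calcb, the surface protein gene Tm4sf1 and S100a4 were higher in recovery, and the day 7 genes 2610528A11Rik and Hpgd were lower. Of 9687 genes, 1.85% had a log2 ratio of at least 1 and 0.588% of at most -1, with a median of 0.01. Of those past 1, 75.8% were higher, and 62.9% with mitochondrial and ribosomal protein genes left out of the totals, which shifted the median of all genes by -0.12. The highest 10 genes were Tm4sf1, Nupr1, Calcb, Ecm1, Crip1, Serpinb2, S100a4, Igfbp3, Krt7 and Fst, with ratios from 2.46 to 3.73. Crip1, a LIM domain protein, was at 210.1, 127 and 1066 CPM, and Serpinb2, an inhibitor of plasminogen activators, at 34.5, 26.8 and 238 CPM. For these 2, as for Calcb, Ecm1 and Igfbp3, days 0 and 7 differed by less than 1 on the log2 scale. The lowest 10 were led by 2610528A11Rik and BC100530, the latter at 94.3, 301 and 20.3 CPM, then Hpgd, Krt1 and Dmkn, a secreted product of squamous cells at 157, 465 and 114 CPM. Gpc3, a cell surface proteoglycan, was at 61.96, 133 and 31.1 CPM. All 10 of these were lower at day 42 than at day 7 also in the cells of rebuilt cluster A described below, and 5 of the 10 by more than 1.

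**Figure D3:**
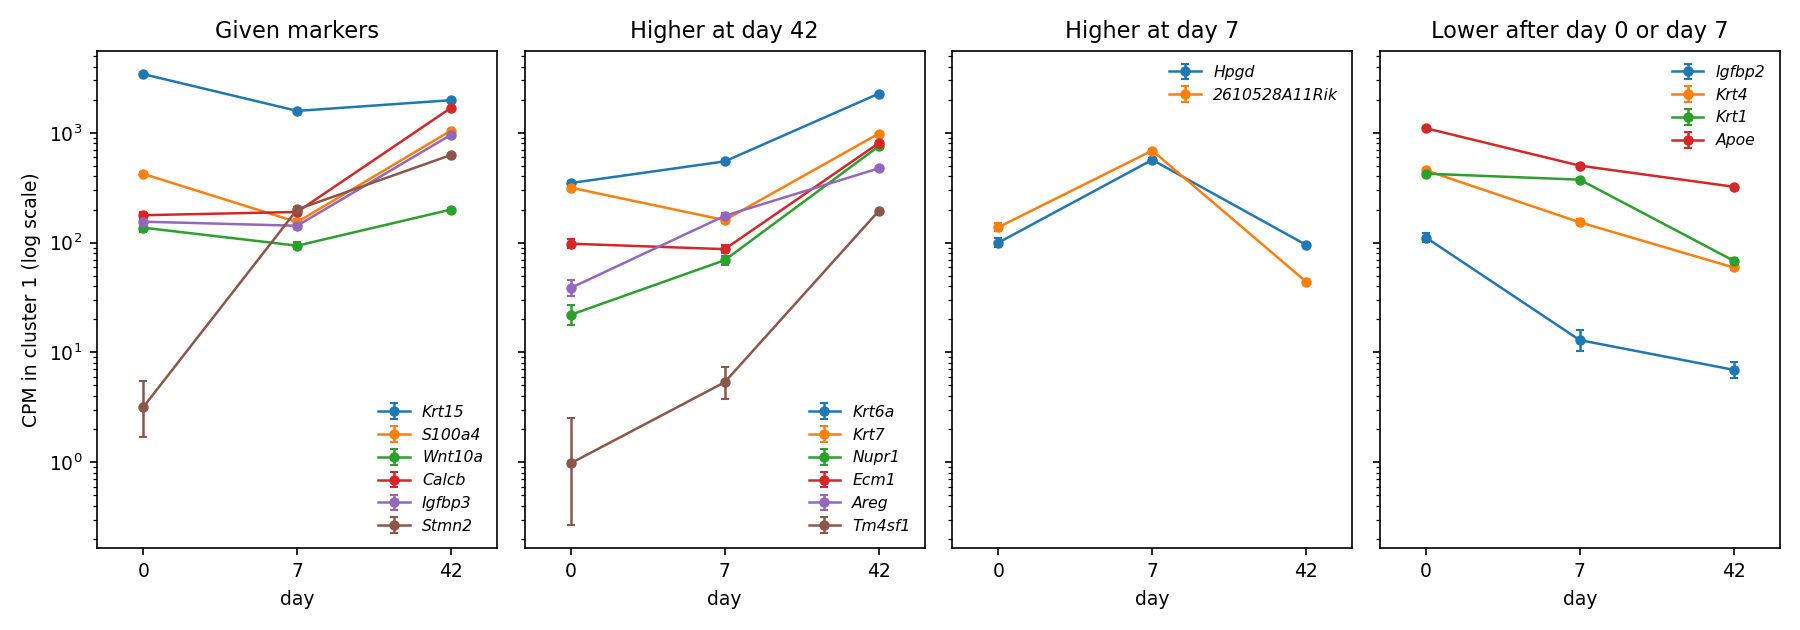
Levels in cluster 1 by day on a log scale, in CPM, for the 6 given markers and for genes named in the day comparisons. Points are single pooled libraries, bars are exact Poisson 95% intervals for counting error, and lines only join the values of a gene. Stmn2 lies at 3.18 CPM at day 0 and 628 CPM at day 42, and Hpgd peaks at 567 CPM at day 7.

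The sequence before the start of the genes that led at day 42 was read for 2 motifs known to be bound by factors of the Fos, Jun and Atf families. They were TGANTCA (AP-1) and TGACGTCA (CRE), which read the same on both strands and of which neither contains the other. The search covered the 250 bases before each start in RefSeq (GRCm38.p6). Of the 15 genes among the highest 10 at day 42 against day 0 or day 7, 10 matched a promoter entry. Ecm1, Serpinb2 and Ppbp held the AP-1 letters, which is 3 of 10 genes. Of all 27025 genes in the table, 7.82% held them at any start (6.75% of the 32851 promoters, as some genes have several). Areg held the CRE letters, against 1.77% of genes and 1.55% of promoters. The last 120 bases before the start are shown for the 3 in which the motif lies there, 5′ to 3′ in lower case with the motif in capitals, since these genes were among those highest at day 42. A match is a description of letters and not a bound site. The stretch of Areg is chr5:91139479-91139598 on the plus strand, and its CRE begins 61 bases before the start. That of Ecm1 is chr3:95739570-95739689 on the minus strand, with AP-1 from 64 bases before the start. That of Serpinb2, for the first of the starts in the table, is chr1:107511303-107511422 on the plus strand, with AP-1 from 94 bases before the start.
Areg: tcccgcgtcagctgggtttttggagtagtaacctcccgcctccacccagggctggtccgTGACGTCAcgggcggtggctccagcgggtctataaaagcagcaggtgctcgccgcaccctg
Ecm1: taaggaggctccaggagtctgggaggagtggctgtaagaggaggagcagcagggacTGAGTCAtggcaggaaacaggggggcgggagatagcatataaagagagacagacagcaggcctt
Serpinb2: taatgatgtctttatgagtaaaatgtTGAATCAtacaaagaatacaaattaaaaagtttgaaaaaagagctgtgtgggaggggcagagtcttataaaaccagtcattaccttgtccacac
Areg was at 38.7, 175 and 474 CPM, Ecm1 at 97.7, 87.2 and 802 CPM and Serpinb2 at 34.5, 26.8 and 238 CPM, so Areg was already higher at day 7 and the other 2 were not. At day 42 Ecm1 and Serpinb2 were higher in rebuilt cluster C (1010.3 and 275 CPM) than in B (295 and 92.5 CPM), whereas Fos and Areg were higher in B. No link between the letters and the levels was tested.

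Cluster 1 was not uniform, and its make-up differed between days. Clustering all keratinocytes anew gave 3 clusters in which cluster 1 held most of the cells, called rebuilt A, B and C here, and they took in 3385 of its 4049 cells. Rebuilt A held 69.3% of the cluster 1 cells of day 0, 66.8% of day 7 and 18.2% of day 42. Rebuilt B held 3.39%, 14.6% and 25.6%, and rebuilt C 13.3%, 6.57% and 38.7%. The rebuilt clusters were made from the same genes that are compared below, so the levels in them are a description. Of these 3 groups at day 42, cells of rebuilt C had the most Calcb (2455 CPM, against 958 in B and 197 in A), Krt7 (1285, 513 and 231 CPM) and Stmn2 (930.3, 174 and 4.49 CPM). The 534 day 42 cells in none of the 3 had Calcb at 2067, Krt7 at 1422 and Stmn2 at 984 CPM, so Krt7 and Stmn2 were higher there than in rebuilt C. Among A, B and C, those of rebuilt B had the most Fos (1391 CPM, against 257 in C and 34.6 in A) and Jun. Rebuilt A kept the most Krt1 (269 CPM, against 25.2 and 18.3 in B and C), Apoe and Hpgd.

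**Figure D4:**
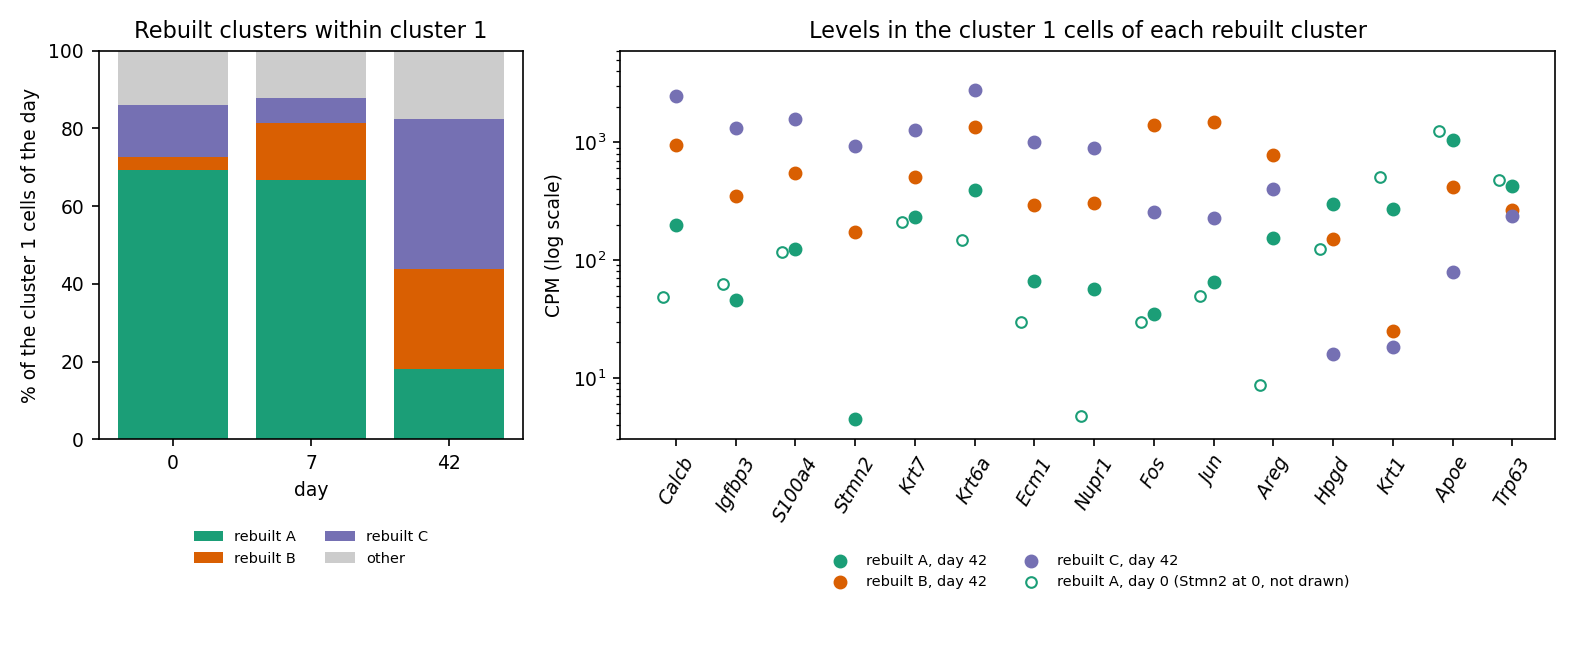
Left, percent of the cluster 1 cells of each day that fell in rebuilt clusters A, B and C or elsewhere. Right, CPM on a log scale in the cluster 1 cells of each rebuilt cluster at day 42 (filled) and of rebuilt A at day 0 (open). Rebuilt A falls from 69.3% of the day 0 cells to 18.2% of the day 42 cells.

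Rebuilt A groups cells by their expression, which in itself narrows differences between days. Many of the day 42 differences were smaller within it. It had 307, 376 and 553 cells of cluster 1, at median depths of 8937, 10551 and 4990 UMIs. There Calcb was at 48.2, 28.6 and 197 CPM and Nupr1 at 4.75, 9.86 and 57.04 CPM, still highest at day 42. Krt7 was at 209, 113 and 231 CPM, Igfbp3 at 62.4, 18.7 and 45.98 CPM and S100a4 at 118, 40.4 and 123 CPM, with no excess over day 0 beyond a log2 ratio of 1. Stmn2 was at 0, 17.3 and 4.49 CPM and thus low on all days. For the log2 ratio of day 42 against day 0, Krt7 went from 1.60 in all cells of cluster 1 to 0.14 in rebuilt A, Fos from 2.44 to 0.17 and Igfbp3 from 2.55 to -0.37. Of the 10 genes highest at day 42 against day 0, 7 still passed 1 in rebuilt A (Areg, Ppbp, Nupr1, Cxcl5, Fst, Calcb and Phlda1), and of the 10 lowest, 4 did (Igfbp2, Krt4, Lars2 and Ndufa4l2). Against day 7, 4 of 10 did (S100a4, Nupr1, Calcb and Ecm1). Of the genes named for day 7 against day 0, 9 of the 10 highest and 10 of the 10 lowest stayed past 1 in rebuilt A. Atf3 was the exception, at 1.63 in all cells and -0.32 in rebuilt A.

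The same genes were then counted cell by cell. The cells of cluster 1 and the T cells were thinned to 1000 UMIs at random, so that depth could not set the share of cells with a UMI. No cell of cluster 1 was too shallow, and 24, 10 and 31 T cells were. Calcb was then found in 9.03% (6.53 to 12.1), 10.48% (8.07 to 13.3) and 55.7% (53.9 to 57.5) of cells. T cells of the same libraries, whose median depths were 2064, 2260 and 1393 UMIs, gave 0%, 2.78% and 2.22%, which is taken as the background of free RNA. Unthinned shares in cluster 1 were 27.1%, 27.5% and 77.9%. Stmn2 was found in 0.226% (0.00571 to 1.25), 9.59% (7.29 to 12.3) and 27.2% (25.6 to 28.8) of thinned cells, and in 1.03%, 1.85% and 0% of T cells. For both genes the day 42 share lay above the background and above the other days, and the day 0 share of Stmn2 was no higher than in T cells. Krt7 was found in 19.6%, 12.6% and 45.3% of cells (T cells 0.513%, 1.85% and 2.22%) and Igfbp3 in 11.7%, 7.28% and 40.03% (T cells 0%, 0% and 2.22%). Krt6a was found in 15.8%, 25.4% and 64.1% (T cells 1.03%, 11.1% and 18.9%). These 3 were likewise commonest at day 42. Krt15 was found in 89.8%, 57.02% and 65.6% (T cells 2.05%, 6.48% and 5.56%) and Hpgd in 9.71%, 34.6% and 8.77% (T cells 0%, 0% and 1.11%), with their highest shares at day 0 and day 7. S100a4 gives no such contrast, since T cells make it themselves, with 72.8%, 47.2% and 56.7% of T cells positive.

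At day 42, the 1377 thinned cells with a Krt7 UMI were set beside the 1666 without. Calcb was found in 73.1% (70.7 to 75.5) against 41.3% (38.9 to 43.7), Igfbp3 in 59.7% (57.05 to 62.3) against 23.8% (21.7 to 25.9), Stmn2 in 43.4% (40.8 to 46.1) against 13.7% (12.1 to 15.5) and Krt6a in 80.2% (78.04 to 82.3) against 50.7% (48.3 to 53.1). All 4 were commoner beside Krt7. Krtdap was found in 9.51% (8.02 to 11.2) against 26.1% (24.01 to 28.3), Apoe in 9.95% (8.42 to 11.7) against 29.5% (27.3 to 31.7) and Hpgd in 2.76% (1.96 to 3.77) against 13.7% (12.1 to 15.5), and these were rarer beside Krt7. Krt15, Areg, Fos and Mki67 had shares whose intervals overlapped between the cells, with Krt15 in 65.6% (63.0004 to 68.1) against 65.5% (63.2 to 67.8), Fos in 29.05% (26.7 to 31.5) against 30.2% (27.99 to 32.5) and Areg in 27.7% (25.4 to 30.2) against 25.9% (23.8 to 28.1). The cells are those of 1 library, so the intervals describe that pool of mice.

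Gene lists were then followed across the days. The lists are described by the median log2 ratio of their measured members for day 7 against day 0, day 42 against day 0 and day 42 against day 7, in that order, beside medians of -0.04, -0.03 and 0.01 over all genes. Of all genes, 0.747%, 2.46% and 1.85% were at or above 1 and 0.542%, 0.83% and 0.588% at or below -1. Fewer of these calls were met within rebuilt cluster A alone. Of 64 list members at or above 1 at day 42 against day 0, 13 were so in rebuilt A (among them Calcb, Areg, Fst, Krt6a, Krt16, B2m and H2-K1), and of 13 at or below -1, 4 were (Igfbp2, Igfbp5, Klk10 and Krt4). Of 48 and 8 such members at day 42 against day 7, 9 and 3 were, and of 21 and 11 at day 7 against day 0, 12 and 8 were. For both day 42 comparisons the counts over all genes, given in the last section, also fell in rebuilt A. The loss of calls was thus not particular to list members. The basal and wound keratins had medians of 0.48, 1.28 and 0.81. At day 42 against day 0, 5 of 7 were past 1 (Krt14, Krt17, Krt6a, Krt6b and Krt16) and none below -1. Krt14 was at 5839, 8124 and 14208 CPM, Krt17 at 445, 383 and 1084 CPM and Krt16 at 20.3, 90.9 and 182 CPM, and the 3 were highest at day 42. Reads of near-identical keratin copies such as Krt6a and Krt6b may have been split between them. The simple and mucosal keratins had medians of -0.94, 1.03 and 1.05, with 3 of 7 below -1 at day 7 and 4 of 7 above 1 at day 42 against day 0. Krt19, a simple-epithelium keratin, was at 53.4, 18.5 and 119 CPM and Krt13, a mucosal keratin, at 252, 256 and 535 CPM. Krt4 went the other way from Krt13 and Krt7. The 9 columnar markers, of which Krt8 and Krt20 are also in this list, were likewise lowest at day 7, at 115, 51.2 and 123 CPM summed, against 11858, 19385 and 16165 CPM in colonocytes, and their part in these keratin levels was not tested. In rebuilt A the day 42 against day 0 medians of these 2 lists were 0.88 and 0.19.

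The hemidesmosome list, for attachment to the basement membrane, had medians of -0.17, 0.40 and 0.39, with 0 of 17 measured genes past 1 in either direction at day 7, a number near what the shares over all genes give. At day 42 against day 0 2 members were past 1, among them the laminin chain Lama3 (38.7, 48.96 and 92.8 CPM), and Dst (806, 531 and 395 CPM) was below -1. Lamb3, another laminin chain, was at 98.9, 86.3 and 169 CPM. Col17a1 was at 684, 512 and 476 CPM and Itgb6, an integrin chain of wound edges, at 24.001, 11.2 and 43.7 CPM. Within rebuilt A, Lama3 was at 35.1, 37.2 and 35.96 CPM, flat over the days. Desmosome and tight junction genes had medians of -0.13, 0.08 and 0.20. The claudins Cldn7, Cldn4 and Cldn1 were the 3 of 17 past 1 at day 42 against day 0, with Cldn7 at 30.9, 22.5 and 138 CPM, and Cldn4 at 13.2, 13.2 and 71.6 CPM. None of the 3 was past 1 in rebuilt A, where Cldn7 was at 10.96, 8.63 and 25.2 CPM, Cldn4 at 4.75, 3.698 and 11.4 CPM and Cldn1 at 2.19, 2.96 and 2.07 CPM. The desmosomal genes Dsp (486, 513 and 482 CPM) and Perp (939, 926 and 992 CPM) were level.

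The suprabasal and cornified envelope list had medians of -0.21, -0.38 and -0.24, with 5 of 17 below -1 and 2 above 1 at day 42 against day 0. Beside Krt1 and Krtdap, Sbsn was at 72.004, 43.9 and 24.3 CPM, while Tgm1, the crosslinking enzyme of the envelope, was at 33.3, 43.2 and 117 CPM. Members of the list thus went both ways. Among the squamous transcription factors, with medians of -0.18, -0.02 and 0.13, Id1, an inhibitor of differentiation, was at 256, 379 and 714 CPM and the only member above 1 at day 42 against day 0. Gata3, a factor of squamous and luminal epithelia, was at 46.04, 23.1 and 8.26 CPM and the only member below -1. In rebuilt A, Id1 was at 146, 150.1 and 242 CPM and Gata3 at 48.6, 28.1 and 25.9 CPM, and neither call held. Trp63 was at 451, 381 and 253 CPM in all cells but at 475, 426 and 426 CPM in rebuilt A. Klf5 was at 369.6, 386 and 355 CPM and Pitx1 at 251, 343 and 377 CPM, both within a log2 ratio of 1.

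Signals that these cells send or receive made up the next lists. Of 8 measured genes for ligands and receptors of the epidermal growth factor family (medians 0.19, 0.76 and 0.56), the 3 past 1 at day 42 against day 0 were the ligands Areg, Hbegf (71.5, 87.4 and 263 CPM) and Ereg (6.61, 13.2 and 32.3 CPM). The receptor Egfr was at 62.5, 46.4 and 37.5 CPM. In rebuilt A, Hbegf was at 35.8, 24.2 and 40.8 CPM and Areg at 8.76, 93.2 and 154 CPM, and the day 42 against day 0 median of the list was -0.066. The insulin-like growth factor list (medians -0.45, -0.55 and -0.0029) held genes that went opposite ways: at day 42 against day 0, Igfbp3 was above 1, whereas Igfbp2, Igfbp5 (39.4, 4.17 and 4.37 CPM) and Igfbp4 (45.6, 23.2 and 12.2 CPM) were below -1. Igf1r, the receptor, was at 110.5, 77.98 and 77.8 CPM. In the BMP and TGF beta list (medians 0.32, 0.56 and 0.25), Fst, Inhba and Tgfbi, a TGF beta induced matrix protein at 93.1, 229 and 227 CPM, were the 3 of 11 past 1. In the CGRP and nerve growth list (medians 0.09, 0.87 and 1.09), 7 of 20 genes were measured for day 42 against day 0, and the 3 past 1 were Calcb, Stmn2 and Calca (2.45, 3.72 and 29.8 CPM). The CGRP co-receptor Ramp3 was at 27.2, 66.96 and 57.8 CPM.

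The Wnt list had medians of -0.18, -0.33 and 0.07, the Notch list of -0.17, -0.32 and -0.27. At day 42 against day 0, Lgr6, a receptor of R-spondins, was at 0.735, 2.53 and 24.3 CPM and past 1, and the Wnt inhibitor Sfrp1 at 43.3, 66.1 and 11.8 CPM and below -1. Wnt7b was at 35.8, 19.6 and 70.6 CPM and Lgr5 at 11.5, 1.04 and 7.33 CPM. Axin2, a common target of Wnt signalling, was at 4.16, 5.51 and 3.79 CPM, low on all days. Of 9 measured Notch genes, Hes1, a target, was past 1 at 141, 276 and 402 CPM. In rebuilt A none of these 3 calls held, with Hes1 at 89.1, 103 and 101 CPM, Lgr6 at 1.096, 0 and 8.64 CPM and Sfrp1 at 48.9, 74.7 and 34.2 CPM. Hes1 was highest in rebuilt B among A, B and C at day 42, at 749 CPM, as Fos and Jun were. The ligands Jag2 (153, 108 and 83.9 CPM) and Jag1 (94.8, 107 and 56.1 CPM) were within 1.

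Of the proliferation genes, 0 of 20 were past 1 in either direction in any comparison, and the medians were 0.08, 0.10 and 0.14. Mki67 was at 71.3, 50.7 and 52.9 CPM and the replication gene Mcm6 at 74.9, 65.2 and 82.9 CPM. After thinning, Mki67 was found in 6.55%, 4.26% and 4.404% of cells, against 3.59%, 2.78% and 5.56% in T cells, which can themselves divide. Cluster 3 had Mki67 at 757, 244 and 504 CPM and Top2a at 725, 285 and 511 CPM, against 36.002, 39.7 and 36.6 CPM of Top2a in cluster 1.

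Antigen presentation and stress genes had higher medians at day 42 than at day 0. MHC class I genes had medians of 0.29, 1.02 and 0.69, with 5 of 9 past 1 at day 42 against day 0 and none below -1. The light chain B2m was at 63.9, 80.7 and 209.7 CPM, H2-K1 at 133, 221 and 402 CPM and the immunoproteasome subunit Psmb8 at 9.31, 17.1 and 50.4 CPM. Reads of H2-K1 and H2-D1, near copies, may be split between them. In rebuilt A, B2m was at 66.8, 76.4 and 218 CPM, much as in the whole cluster. T cells held 1683, 1522 and 1886 CPM of B2m, and the part of free RNA was not tested. Interferon response genes had medians of -0.26, 0.23 and 0.40 and MHC class II genes were too few to summarise. Immediate early and heat shock genes, which cell dissociation also turns on, had medians of 0.63, 1.57 and 0.77. Of these 16, the numbers past 1 in the same order of comparisons were 6, 12 and 4, where all genes gave 0.747%, 2.46% and 1.85%. Fos was at 94.5, 309 and 559 CPM, Jun at 126, 379.9 and 584 CPM and Atf3 at 40.9, 148 and 327 CPM. In rebuilt A, Fos was at 29.6, 72.2 and 34.6 CPM and Jun at 49.3, 70.3 and 65.7 CPM, and the list medians were -0.05, 0.09 and 0.17.

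Wound genes had medians of 0.03, 0.97 and 0.94, and 7 of 14 were past 1 at day 42 against day 0. In rebuilt A the day 42 against day 0 medians were 0.15 for this list, 0.30 for the S100 list and 0.11 for the antimicrobial list below. The 7 included the 4 wound keratins, Anxa1 (495, 619 and 1877 CPM) and the urokinase receptor Plaur (6.86, 7.74 and 40.5 CPM). Ly6a, a surface protein used as a mark of regenerating epithelium, was at 407, 656 and 659 CPM, within 1. The S100 list had medians of 0.16, 1.03 and 0.77 and 7 of 11 genes past 1 at day 42 against day 0, none of them so in rebuilt A. The 7 included S100a10, at 951, 905 and 2271 CPM, and also S100a8 and S100a9, genes of neutrophils, whose markers were higher in T cells than here. S100a6 was at 5173, 4732 and 9716 CPM, within 1. The antimicrobial and inflammatory list had medians of 0.66, 0.79 and 0.10, with 8 of 18 past 1 both at day 7 and at day 42 against day 0. Beside S100a8 and S100a9, these included the chemokines Cxcl2 (0.245, 20.7 and 13.01 CPM) and Ccl20 (0.245, 17.1 and 10.97 CPM) and the cytokine Il1b (0.735, 25.6 and 16.5 CPM). T cells held 0, 684 and 221 CPM of Il1b and 139, 525 and 100.3 CPM of Cxcl2, but 0, 0 and 15.05 CPM of Ccl20. The part of free RNA in these low levels was not tested. Oxidant and hypoxia genes had medians of 0.07, 0.33 and 0.09, and Gpx2, a glutathione peroxidase at 269.6, 404 and 578 CPM, was the 1 member past 1 at day 42 against day 0.

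**Figure D5:**
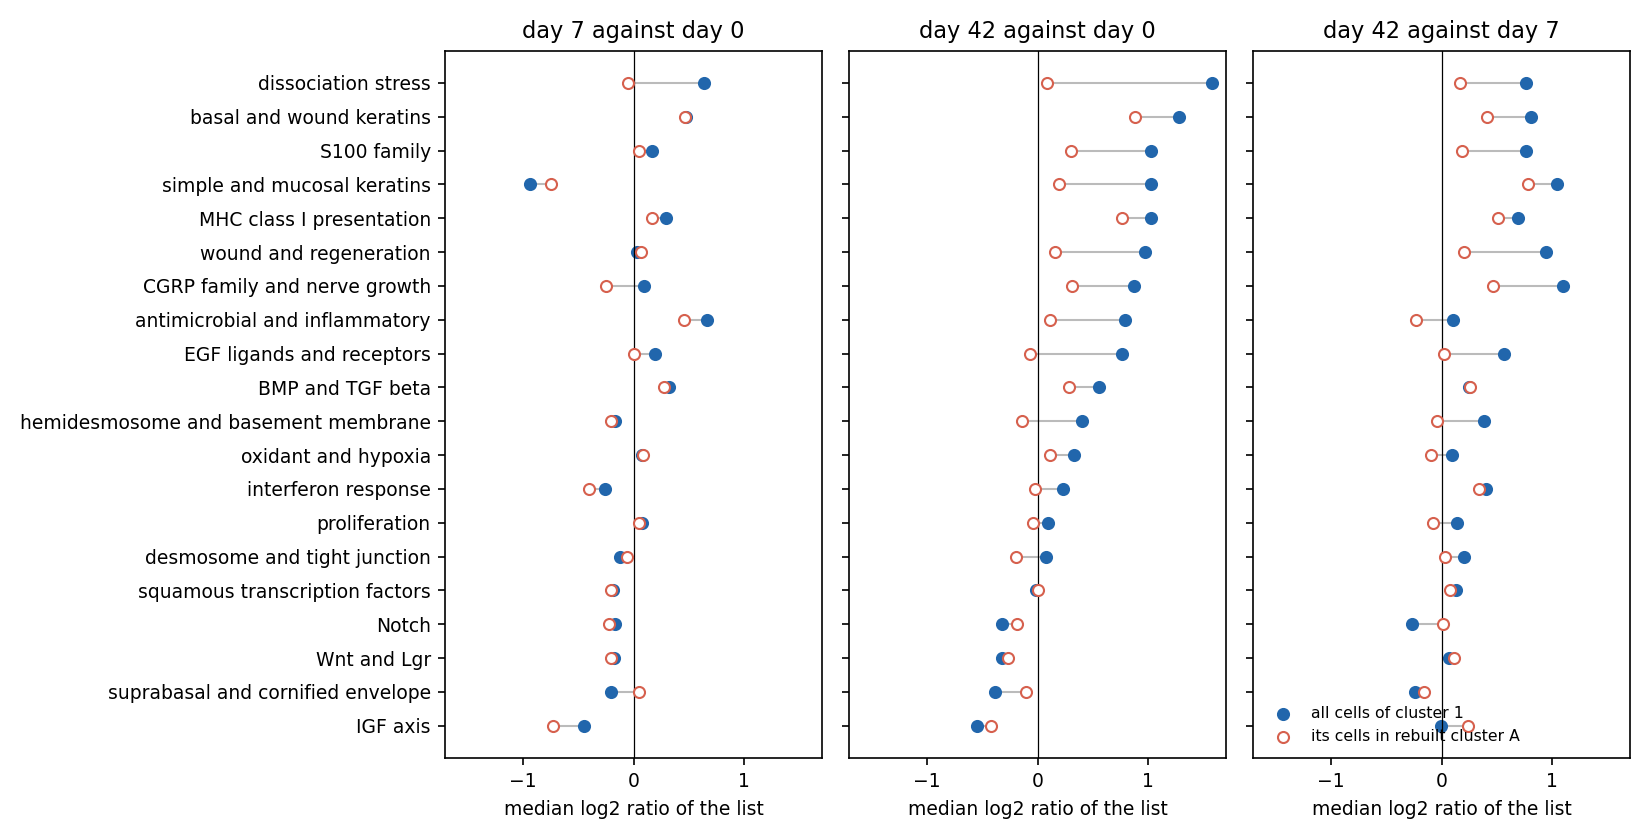
Median log2 ratio of each gene list in all cells of cluster 1 (filled) and in its cells that fell in rebuilt cluster A (open), for the 3 day comparisons. The dissociation stress list is at 1.57 for day 42 against day 0 in all cells and at 0.09 in rebuilt A, and the MHC class I list at 1.02 and 0.77.

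Clusters 3, 9 and 8 were most like cluster 1 over all genes, with a Pearson correlation of log2 levels across genes of 0.947, 0.933 and 0.888 in the mean of the 3 days. Genes are not independent replicates, and with 1 library a day the differences below could not be tested. In cluster 3, Krt6a, Areg and Fst, which were highest at day 42 in cluster 1, were highest at day 7. Krt6a was at 1211, 3805 and 2855 CPM in cluster 3, against 349, 549 and 2269 CPM in cluster 1. Areg was at 40.6, 607 and 373 CPM, Fst at 2.08, 231 and 158 CPM and Ecm1 at 181, 437 and 699 CPM. Between day 7 and day 42 the log2 ratio of Fst was 2.46 in cluster 1 and -0.52 in cluster 3, and that of Krt6a was 2.03 and -0.41. Nupr1 was at 54.3, 339.6 and 605 CPM in cluster 3. Cells of cluster 3 were also deeper, with a median of 25857 UMIs at day 7.

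Calcb was at 2.35, 7.297 and 20.7 CPM in cluster 9 and at 3.09, 12.01 and 28.1 CPM in cluster 8, and thus also highest at day 42 there, at levels so low that the added 10 CPM sets the size of a log2 ratio. Nupr1 was at 10.6, 13.4 and 21.1 CPM in cluster 9 and at 37.2, 47.8 and 56.98 CPM in cluster 8, with ratios of 0.60 and 0.51 for day 42 against day 0, where cluster 1 had 4.57. Cluster 9 shared the day 7 peak of Hpgd, at 137, 371 and 208 CPM. That of 2610528A11Rik was seen in clusters 9 (158, 566 and 241 CPM), 8 (129.6, 304 and 224 CPM), 3 (139, 175 and 73.8 CPM) and 4 (507, 1302 and 586 CPM). Cluster 3 did not share the peak of Hpgd, at 33.8, 36.5 and 43.4 CPM. Apoe was level in cluster 8, at 6318, 8044 and 6416 CPM, and lower after day 0 in cluster 3, at 1059, 139 and 241 CPM. Krt15 dipped at day 7 in all 4 clusters, with day 7 against day 0 ratios of -1.11 in cluster 1 and -2.25, -3.24 and -0.80 in clusters 3, 9 and 8.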

How the data were processed

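Single-cell 3' libraries of distal colon and anus were made on the 10x Chromium platform after trypsin digestion and removal of dead cells, 1 per day from 5 pooled mice, per the labels' protocols. Cell Ranger 3.0.2 and the mm10 build were used, per the submitters' processing notes. The authors deposited raw UMI counts of 31053 genes in 37080 cells, a cell table with library, cluster, cell type name and a size factor, which is a ratio per cell (total UMIs over a constant), and a gene table. How doublets and cells were filtered is not given in the sources used here. The size factors were not used as weights.

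UMIs were summed over the cells of a cluster and library and scaled to CPM. Ratios are log2((CPM + 10)/(CPM + 10)), and list medians and counts used genes of 5 CPM or more in one of the libraries compared. Named genes were the 10 highest and 10 lowest ratios per day comparison among genes with at least 100 CPM (without Xist, Y-linked genes and genes for immunoglobulins, haemoglobin, ribosomal proteins or mitochondrial transcripts), and the 15 genes with the highest lowest-day ratio against the mean of the other keratinocyte clusters. Other genes are members of 21 lists. The cells, lists and markers were chosen with earlier results of these data known. With 1 library per day no test was run and no p-value is given. Intervals are exact Poisson for CPM and Clopper-Pearson for shares, at 95%, and cover counting error only.

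Keratinocytes were clustered anew with 2000 variable genes, 30 principal components, 15 neighbours and Leiden at resolution 1, and doublet scores came from Scrublet, both in scanpy 1.11.5 (igraph 0.11.9). Other work used Python 3.11.15, numpy 2.4.6, scipy 1.17.1 and pandas 2.3.3, and figures matplotlib 3.10.9. The calculations were tested on simulated data. GENCODE M21 held 30934 of the deposited identifiers, and promoters came from RefSeq. Alternatives covered the scaling, the pseudocount, filters on genes and cells, doublets, the richest cells, thinning and the rebuilt clusters. Leaving out cells with a haemoglobin UMI and keeping rebuilt cluster A alone were chosen after seeing the data. The values of 1 list member are not reported here.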

Additional observations from a re-analysis of the deposited data

Results flagged for a closer look

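Some values had one sign in cluster 1 and the other sign, or were close to 0, in the 3 keratinocyte clusters most like it. With 1 library per day, none of these differences was tested. The median log2 ratio of the MHC class I list for day 7 against day 0 was 0.29 in cluster 1, and -0.46, -0.50 and -0.34 in clusters 3, 9 and 8. For day 42 against day 7, Apoc1 had a ratio of -1.23 in cluster 1 and 0.76, 0.29 and 0.03 in the other clusters. Ndufa4l2 had -1.46 in cluster 1 and 0.12, 1.13 and 0.05 elsewhere. Pik3r1 had -1.53 in cluster 1 and 0.60, 0.08 and 0.18 elsewhere. In rebuilt cluster A alone the cluster 1 values were -0.08 for Apoc1, -0.92 for Ndufa4l2 and -0.55 for Pik3r1.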

How the results depend on the processing

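No paired analysis was possible because each day has 1 library. In rebuilt cluster A alone, Atf3 had a ratio of -0.32 for day 7 against day 0 (1.63 in all cells), Igfbp3 of -0.37 for day 42 against day 0 (2.55), and Krt4 of 0.075 and Stmn2 of -0.91 for day 42 against day 7 (-1.23 and 1.60). There 53 genes were higher and 13 lower past 1 at day 42 against day 0 (243 and 82 in all cells), and 56 and 20 against day 7 (179 and 57). It holds fewer cells by construction, and grouping cells by expression in itself narrows differences between days. Its day 42 against day 0 medians were 0.30 for S100, 0.11 for antimicrobial, -0.19 for desmosome, 0.089 for stress and 0.15 for wound genes. Against day 7 they were 0.17 for stress, -0.042 for hemidesmosome and -0.078 for proliferation genes, and stress genes had -0.049 at day 7 against day 0. The cause of the moves below was not tested.

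A pseudocount of 1 CPM gave 200 higher and 247 lower genes at day 7 against day 0 (73 and 53 with 10 CPM), 501 and 438 at day 42 against day 0, and 431 and 191 against day 7. It gave antimicrobial medians of 1.94 at day 7 and 1.45 at day 42 against day 0, and an interferon median of 0.81 for day 42 against day 7. Thinning to 1000 UMIs gave 181 higher and 229 lower genes at day 7 and 154 lower at day 42 against day 0, and a desmosome median of 0.038 at day 7. Totals without mitochondrial and ribosomal protein genes gave 86, 198 and 108 lower genes in the 3 comparisons, and made 2 basal genes highest in cluster 1 at day 0 and 3 at day 42 (1 each before). Without the 10 richest cells 48 genes were lower at day 42 against day 0, and with the mean of CPM per cell 2 hemidesmosome genes were highest at day 0 (4 before).

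The filter on cells gave shares of 5.72%, 4.79% and 31.9% of all cells and 7.73%, 6.12% and 33.8% of epithelial cells. Rebuilt clusters gave, for day 7 and day 42, 4.83% and 23.6% of all cells, 6.87% and 28.5% of epithelial cells and 7.68% and 34.6% of keratinocytes, with proliferation medians of 0.21 for day 7 against day 0 and -0.055 for day 42 against day 7. Thinning to 2000 UMIs raised the shares by construction. They were 13.6% for Calcb at day 0 and 67.3% at day 42, 34.1% for Stmn2 at day 42, and, for the 3 days, 16.8%, 12.3% and 51.7% for Igfbp3, 94.1%, 73.7% and 79.1% for Krt15, 35.6%, 25.1% and 63.2% for Krt7, 26.5%, 13.7% and 55.1% for S100a4 and 21.8%, 19.04% and 31.99% for Wnt10a. Day 42 stayed highest except for Krt15, and for Wnt10a and Calcb day 0 was then above day 7.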
